A study of Arabidopsis thaliana with 12 samples.

Results

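The MYB transcription factor genes were followed across 4 genotypes of *Arabidopsis thaliana* seedlings, through the Affymetrix ATH1 probe sets that could be tied to a gene with a numbered MYB symbol. Members were all probe sets assigned to a single gene whose symbol was MYB or AtMYB followed by a number, with MYB75 (PAP1) left out. This gave 10 of the 22746 probe sets tested, or 10 of the 14649 genes named by either the platform annotation or the study's tables: *MYB10* (At3g12820), *MYB28* (At5g61420), *MYB44* (At5g67300), *MYB61* (At1g09540), *MYB65* (At3g11440), *MYB66* (At5g14750), *MYB73* (At4g37260), *MYB77* (At3g50060), *MYB91* (At2g37630) and *MYB111* (At5g49330). The gene table of the RefSeq annotation lists 121 genes with such a symbol, so most of the family was not analysed here.

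RNA came from whole seedlings grown on agar in continuous red light, for 7 days by the labels and methods and for a shorter time by a figure legend of the study, with 3 arrays for each genotype labelled as biological replicates. The wild type was the accession Ws-2. The mutant *phyB-77*, labelled gul2-1, carries a chemically induced point mutation that places a premature stop codon in *PHYB*, the gene of the main red light photoreceptor, in the Ws-2 background. The mutant *bri1-5* carries a weak allele of *BRI1*, the brassinosteroid receptor kinase, and the double mutant (*phyB-77 bri1-5*) has both alleles. Each mutation was represented by 1 allele, and the wild type was also grown under red light, so no comparison is against darkness. The sources do not say whether replicates were grown separately, so each p-value is set against the spread of these arrays, which may be technical.

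MYB proteins of the plant R2R3 class bind DNA through a pair of imperfect helix-turn-helix repeats. Different members control different outputs: flavonols, glucosinolates, secondary walls, epidermal cell identity, leaf development, and responses to abscisic acid, auxin or iron supply. Several act together with basic helix-loop-helix proteins, and some are held back by small single-repeat MYB proteins or by a microRNA. The phytochrome B and brassinosteroid pathways meet in the control of seedling growth, and the arrays ask how each mutation, and the combination, moves transcript signals.

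All 10 members were named through the readable parts of the study's gene tables, which are selected or ordered by results on these same arrays. *MYB28*, *MYB61* and *MYB66* were read only from the complete data, whose readable part was ordered by adjusted p in *bri1-5* against Ws-2. Membership depended on which rows could be read, and a listed gene is one that stood in such a part. The contrast that listed a gene is therefore a description for that gene and no independent evidence of its direction: *phyB-77* against Ws-2 for *MYB10* and *MYB111*, *bri1-5* against Ws-2 for *MYB28*, *MYB61* and *MYB66*, and the double mutant against Ws-2 for *MYB10*, *MYB44* and *MYB77*. *MYB73* was placed in the tables by its results in all 3 contrasts with Ws-2. *MYB65* and *MYB91* stood among the sets of a Venn diagram of these contrasts and of target genes of the brassinosteroid transcription factor BZR1. Which contrast placed them there was not taken from it, so all 3 are counted as listing them. The contrasts between the double mutant and each single mutant, and the interaction, listed no member, although they share arrays with those that did. Genes of the pathway and marker lists that were named through the same tables carry the same limit, so the list counts below are no independent evidence of a direction. Values below are log2 signals on the RMA scale, and a log2 change of 1 is a doubling of signal. A call is an adjusted p under 0.01 in limma, over all 22746 probe sets.

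Array medians lay between 5.88 and 5.99, and arrays of 1 genotype correlated at 0.993 to 0.998 over all probe sets, against 0.969 to 0.988 for arrays of different genotypes. No array stood apart. In whole seedlings a lower signal from fewer cells of a type cannot be told apart from less RNA per cell. The 7 seed storage markers summed to a linear signal of 1244 to 1378 in Ws-2, 15819 to 16455 in *phyB-77* seedlings, 1376 to 1501 in *bri1-5* and 13145 to 13793 in the double mutant. All 7 were called higher in *phyB-77*, and in the double mutant 5 were called higher and 1, *SESA1*, lower. In *bri1-5* 2 were called lower. Over all probe sets 8.56% were called higher in *phyB-77*, and 6.55% higher and 8.01% lower in the double mutant. The share called lower in *bri1-5* was 8.61%. All 7 markers were named through the study's tables, abundant members dominate the sum, and their part in the results below was not tested.

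Against Ws-2, 5 of the 10 members were called higher and 1 lower in *phyB-77*, where 15.3% of all probe sets were called (8.56% higher, 6.77% lower). Of the 5 members not listed for that contrast, *MYB28* was called lower and the others were not called. In *bri1-5*, 3 members were called higher and 2 lower, where 19.1% of all probe sets were called (10.5% higher, 8.61% lower). Of the 4 members not listed there, *MYB77* was called higher. In the double mutant, 5 were called higher and 2 lower, where 14.6% of all probe sets were called (6.55% higher, 8.01% lower). Of the 4 members not listed there, *MYB111* was called higher and *MYB28* and *MYB61* lower. The 3 arrays of a mutant did not overlap those of Ws-2 for 7 members in *phyB-77*, 6 in *bri1-5* and 8 in the double mutant, against 36.4%, 37.6% and 43.4% of all probe sets. Since most calls sit in contrasts that listed the gene, nothing is read from these counts.

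**Figure D1:**
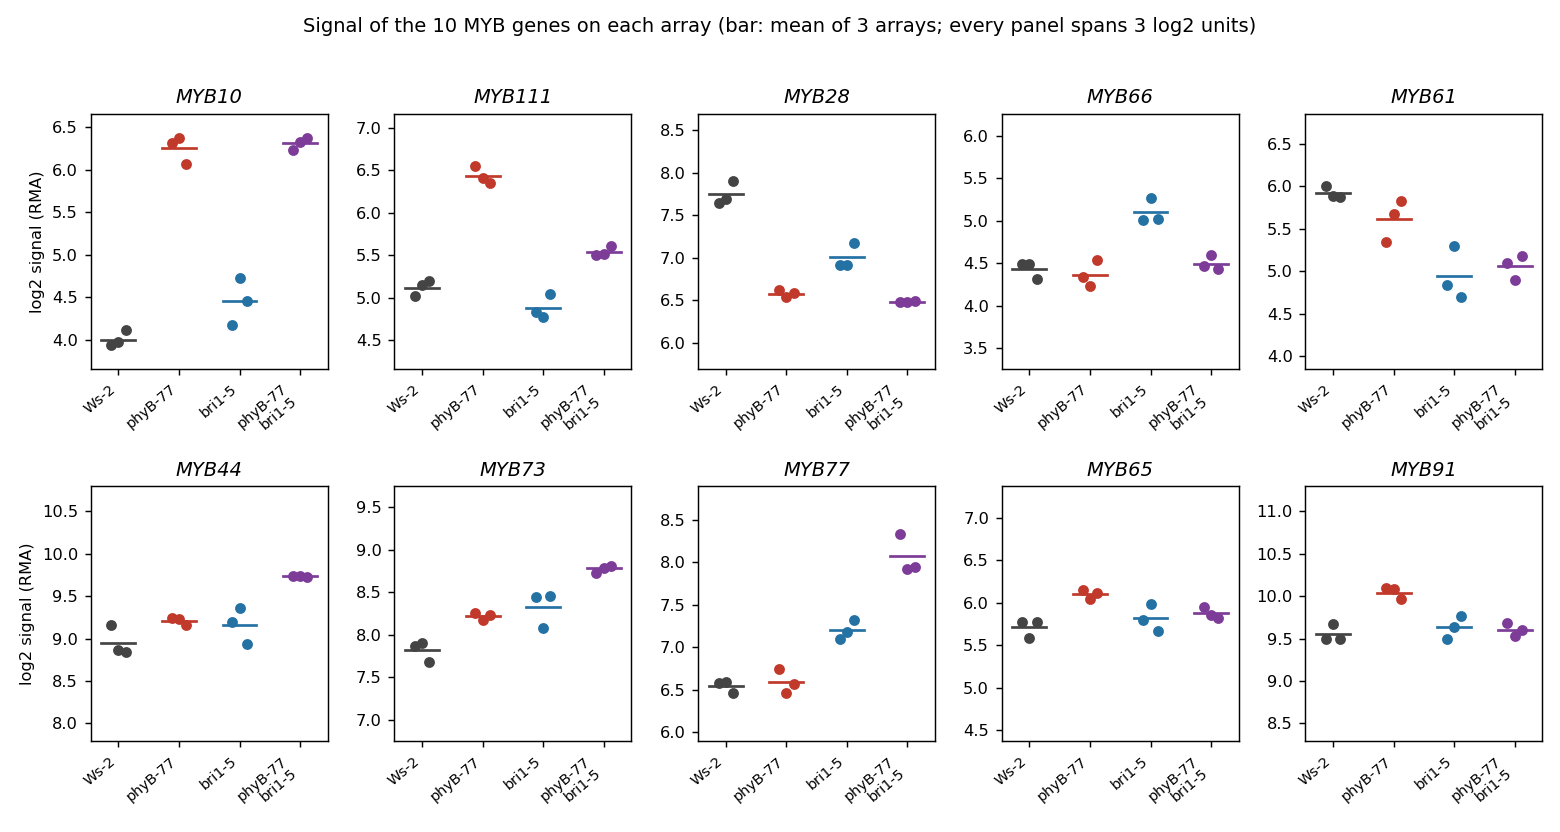
Log2 RMA signal (y axis, a separate scale for each gene) of the 10 MYB genes by genotype (x axis), with 1 point for each array and a bar at the mean of 3 arrays. *MYB10* lay near 4 in Ws-2 and between 6.06 and 6.37 in both genotypes with *phyB-77*, and *MYB77* reached 7.92 to 8.33 in the double mutant, above all other arrays.

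*MYB10* had the highest rise of all members. With its close relative *MYB72* it is known from Arabidopsis roots as an activator of nicotianamine synthesis under iron deficiency. Its signals were 3.93, 3.97 and 4.11 in Ws-2, 6.31, 6.37 and 6.06 in *phyB-77* seedlings, 4.17, 4.72 and 4.45 in *bri1-5*, and 6.23, 6.33 and 6.37 in the double mutant. The arrays of both genotypes with *phyB-77* lay above every array of the genotypes without it. The signal was 4.74-fold higher in *phyB-77* than in Ws-2 (log2 change 2.25 ± 0.12 SE) and 4.95-fold higher in the double mutant (2.31 ± 0.12), both contrasts that listed the gene.

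The double mutant exceeded *bri1-5* in *MYB10* signal by 1.87 ± 0.12 (95% interval 1.61 to 2.12, adjusted p = 1.4e-09 in limma). This contrast listed no gene, but it reuses the double mutant arrays through which *MYB10* was listed. It is no independent evidence of the rise. The double mutant and *phyB-77* overlapped, with a difference of 0.06 and an interval of -0.19 to 0.32 (adjusted p = 0.78 in limma). The 3 *bri1-5* arrays were above the 3 Ws-2 arrays by 0.44 ± 0.12, which missed the threshold (adjusted p = 0.0102 in limma) and passed it without *bri1-5* replicate 1 (0.58, adjusted p = 0.0013) or without *phyB-77* replicate 3 (0.44, adjusted p = 0.0091). The interaction was -0.38, with an interval of -0.74 to -0.02 (adjusted p = 0.13 in limma).

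Of 12 listed genes of the iron deficiency response, 5 were measured by a named probe set, 3 of these named through the study's tables. In *phyB-77* and in the double mutant 2 of the 5 were called lower and none higher, with medians of -0.06 and -0.05, where 6.77% and 8.01% of all probe sets were called lower. In *bri1-5* 4 were called higher and 1 lower, against 10.5% and 8.61% of all probe sets, with a median of 0.96, while the medians over all probe sets were 0.01, 0.01 and -0.02 in *phyB-77*, *bri1-5* and the double mutant. *NAS1*, a nicotianamine synthase, had changes of -1.44, -1.08 and -1.79 in the same order, all called lower. *IRT1*, the main iron transporter of the root epidermis, fell by 0.82 in *phyB-77* and by 1.00 in the double mutant, and was 0.96 higher in *bri1-5*. The genes of the basic helix-loop-helix factors *BHLH39* and *BHLH101* rose by 1.46 and 1.52 in *bri1-5*, where they were called, and lay within 0.06 of Ws-2 in the other mutants. No measured gene of the list was called higher in the genotypes where the *MYB10* signal was highest. Most listed genes were not measured, and a link with *MYB10* was not tested.

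*MYB111* rose in *phyB-77* and to a smaller extent in the double mutant. It activates flavonol synthesis genes, mainly in cotyledons, together with *MYB11* and *MYB12*. Its signals were 5.02, 5.15 and 5.20 in Ws-2, 6.55, 6.41 and 6.35 in *phyB-77* seedlings, 4.83, 4.77 and 5.04 in *bri1-5*, and 5.50, 5.52 and 5.61 in the double mutant. The *phyB-77* arrays were above all others, and the double mutant arrays lay between those of *phyB-77* and Ws-2 with no overlap. The rise in *phyB-77*, the contrast that listed the gene, was 2.49-fold (1.32 ± 0.10).

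In the contrasts that did not list it, *MYB111* was 0.90 ± 0.10 lower in the double mutant than in *phyB-77* (adjusted p = 1.5e-06 in limma) and 0.66 ± 0.10 higher than in *bri1-5* (adjusted p = 3.7e-05 in limma). The contrast with *phyB-77* reuses the *phyB-77* arrays through which the gene was listed. The difference between *bri1-5* and Ws-2 was -0.24 (interval -0.44 to -0.04, adjusted p = 0.073 in limma). The interaction was called at -0.66 ± 0.14 (adjusted p = 0.0017 in limma), so on these arrays the change with *phyB-77* was smaller in *bri1-5* than in Ws-2. It contains the contrast that listed the gene, which favours this sign. The rise of 0.42 ± 0.10 from Ws-2 to the double mutant (adjusted p = 0.0031 in limma) lost its call without Ws-2 replicate 1 (0.37, adjusted p = 0.021), Ws-2 replicate 2 (0.44, 0.01), double mutant replicate 2 (0.43, 0.012) or double mutant replicate 3 (0.39, 0.022).

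Of 8 listed genes of flavonol synthesis, 6 were measured, 3 of them named through the study's tables. In *phyB-77* 3 of the 6 were called higher and none lower (median 0.72), in *bri1-5* 1 was called lower (median 0.06), and in the double mutant 1 was called higher and 2 lower (median -0.26). Over all probe sets 8.56% were called higher in *phyB-77* and 8.61% lower in *bri1-5*, and the double mutant had 6.55% higher and 8.01% lower. *CHS*, chalcone synthase at the entry of the pathway, was 1.87 higher in *phyB-77* and 0.55 higher in the double mutant. *F3H*, flavanone 3-hydroxylase, rose by 1.59 in *phyB-77* and fell by 0.68 in the double mutant. *F3'H*, flavonoid 3'-hydroxylase, rose by 1.11 in *phyB-77* and had a change of -0.02 in the double mutant (adjusted p = 0.93 in limma). The flavonoid glucosyltransferase gene *UGT78D2* was called lower in *bri1-5*, by 0.43, and in the double mutant, by 0.96. All 6 measured genes were called lower in the double mutant than in *phyB-77* (median -1.18), where 9.51% of all probe sets were. This was the direction of *MYB111* in the same contrast, and a link between them was not tested. For 5 of 6 the interaction was called below 0, against 8.93% of all probe sets.

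*MYB28* fell in all 3 mutants. It is the main activator of aliphatic glucosinolate synthesis, the methionine-derived part of the sulphur-rich defence compounds of the Brassicaceae. Its signals were 7.65, 7.69 and 7.90 in Ws-2, 6.62, 6.54 and 6.59 in *phyB-77* seedlings, 6.92, 6.92 and 7.18 in *bri1-5*, and 6.48, 6.48 and 6.49 in the double mutant. The 4 genotypes did not overlap: Ws-2 was highest, followed by *bri1-5*, *phyB-77* and the double mutant. Relative to Ws-2 the signal was 2.24-fold lower in *phyB-77* (-1.16 ± 0.10, adjusted p = 3.3e-08 in limma) and 2.40-fold lower in the double mutant (-1.27 ± 0.10, adjusted p = 1e-08 in limma), both contrasts that did not list the gene. In *bri1-5*, the contrast that listed it, the signal was 1.67-fold lower (-0.74 ± 0.10). Both other contrasts reuse its Ws-2 arrays.

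The double mutant was 0.52 below *bri1-5* in *MYB28* signal, with a log2 change of -0.52 ± 0.10 (adjusted p = 0.0004 in limma). Its difference from *phyB-77* was -0.10, with an interval of -0.30 to 0.10 (adjusted p = 0.52 in limma). The interaction was called at 0.64 ± 0.14 (adjusted p = 0.002 in limma): the sum of the falls in the single mutants exceeded the fall in the double mutant. It contains the contrast that listed the gene, which favours this sign.

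Of 14 listed genes of aliphatic glucosinolate synthesis, 6 were measured, 3 of them named through the study's tables. All 6 were called lower in *phyB-77* (median -1.20) and in the double mutant (median -1.18), while in *bri1-5* 3 were called lower and 1 higher (median -0.43). Over all probe sets 6.77% were called lower in *phyB-77*, 8.01% in the double mutant and 8.61% in *bri1-5*, where 10.5% were called higher. *BCAT4*, which starts methionine chain elongation, had called changes of -2.52, -0.57 and -2.28 in *phyB-77*, *bri1-5* and the double mutant. *FMOGS-OX1*, which oxidises the side chain sulphur, had called changes of -2.36, -1.5 and -2.17 in the same order. Its relative *FMOGS-OX3* changed by -0.65, -1.52 and -1.36, also called lower in all 3. The glucosyltransferase gene *UGT74C1* fell by 1.08 in *phyB-77* and 1.00 in the double mutant, with a change of -0.26 in *bri1-5* (adjusted p = 0.062 in limma). The exception was *MAM3*, a chain elongation synthase gene named here after its values were seen, which fell by 0.65 in *phyB-77* and 0.62 in the double mutant but rose by 1.37 in *bri1-5*. Green tissue markers, 2 of 5 of which were measured, were also both called lower in *phyB-77* (median -0.62) and in neither *bri1-5* nor the double mutant. Their summed signal was 25649 to 27163 in Ws-2, 15310 to 19497 in *phyB-77* seedlings, 23942 to 27752 in *bri1-5* and 24250 to 25193 in the double mutant, and its part in the *phyB-77* results was not tested.

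**Figure D2:**
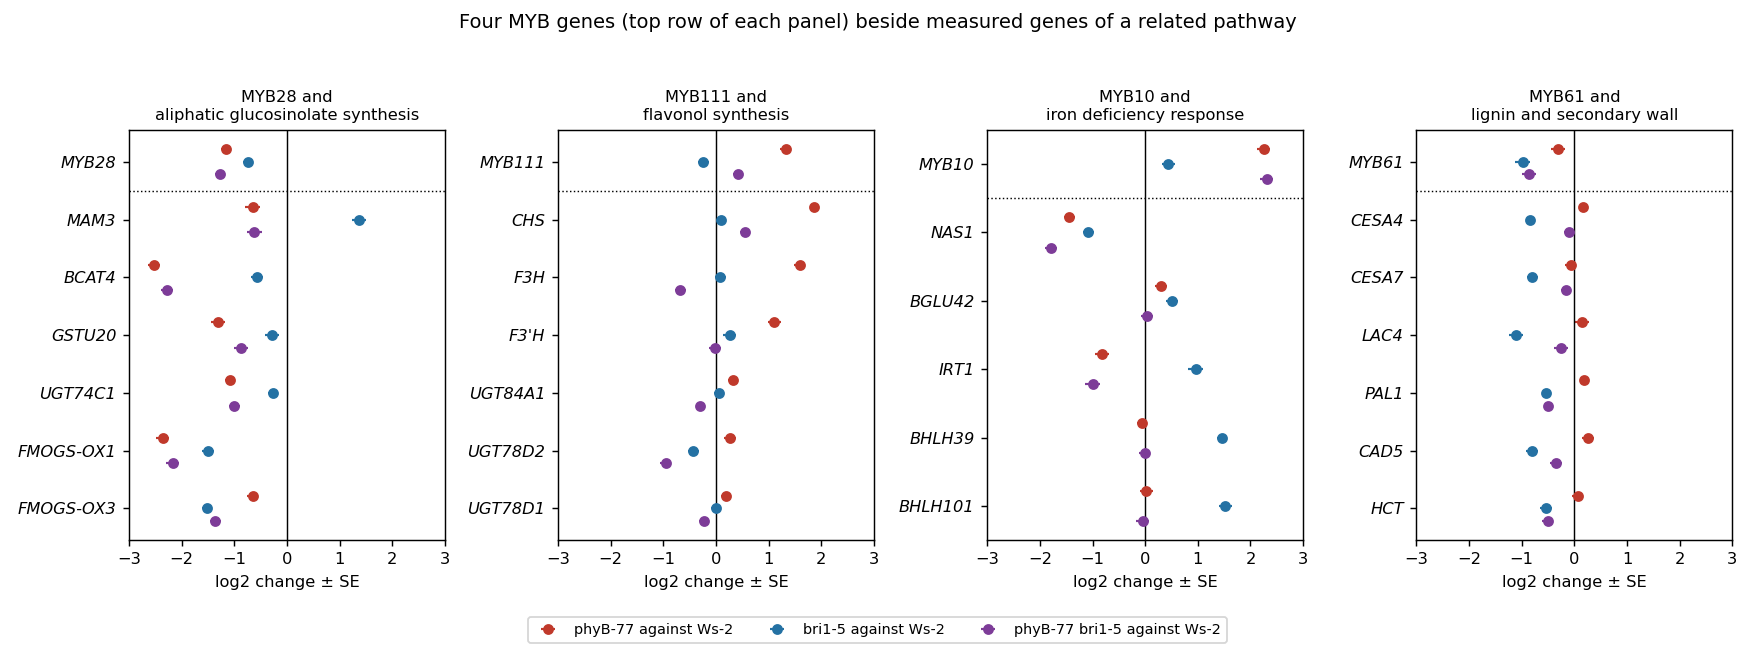
Log2 change against Ws-2 with its SE (x axis) in *phyB-77*, *bri1-5* and the double mutant (colours) for *MYB28*, *MYB111*, *MYB10* and *MYB61* (top of each panel) and the measured genes of a related list. All 6 aliphatic glucosinolate genes lay below 0 in *phyB-77* beside *MYB28*. The iron genes *NAS1* and *IRT1* lay below 0 in *phyB-77* where *MYB10* was at 2.25, and the other 3 measured iron genes were not called there.

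*MYB66*, better known as *WEREWOLF*, specifies the hairless cell files of the root epidermis in a complex with basic helix-loop-helix partners. Its mean signal was 4.43 ± 0.11 (SD, n = 3) in Ws-2, 4.36 ± 0.15 in *phyB-77* seedlings, 5.10 ± 0.15 in *bri1-5* and 4.49 ± 0.08 in the double mutant. The *bri1-5* arrays (5.01 to 5.27) were above all other arrays (4.23 to 4.59). These signals are low: the mean over all arrays stood at percentile 34.4 of all probe sets, and no detection call was used. The gene was listed for the rise of 0.67 ± 0.10 in *bri1-5*. In a contrast that did not list it but reuses the *bri1-5* arrays, the double mutant was 0.61 ± 0.10 lower than *bri1-5* (adjusted p = 0.00019 in limma). Changes from Ws-2 were -0.07 in *phyB-77* (interval -0.28 to 0.15) and 0.07 in the double mutant (interval -0.15 to 0.28), both with an adjusted p of 0.73 in limma. The interaction of -0.54 missed the threshold (adjusted p = 0.011 in limma) and passed it with array weights (-0.57, adjusted p = 0.0063), without *bri1-5* replicate 3 (-0.58, adjusted p = 0.0095) or *phyB-77* replicate 2 (-0.61, adjusted p = 0.0081).

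All 7 root and root hair markers were measured, and 5 were called higher and 1 lower in *bri1-5* (median 0.69), 6 lower in *phyB-77* (median -0.82) and 3 lower in the double mutant (median -0.29). Over all probe sets 10.5% were called higher and 8.61% lower in *bri1-5*, and 6.77% and 8.01% were called lower in *phyB-77* and the double mutant. Of the 7, 5 were named through the study's tables. The proline-rich wall protein gene *PRP3* rose by 1.02 in *bri1-5* and fell by 2.21 in *phyB-77*, and its change in the double mutant was 0.34 (adjusted p = 0.025 in limma). *COBL9*, required for root hair growth, rose by 0.69 in *bri1-5* and fell by 1.11 in *phyB-77*. The root hair expansin gene *EXPA7* rose by 0.52 and fell by 1.32 in the same order. *CASP1*, a protein of the endodermal Casparian strip, fell in all 3 mutants, by 0.90 in *bri1-5*, 0.56 in *phyB-77* and 0.65 in the double mutant. The summed marker signal was 9510 to 10503 in Ws-2, 8908 to 10639 in *phyB-77* seedlings, 9961 to 10386 in *bri1-5* and 8636 to 9459 in the double mutant. In *bri1-5* 5 of the 7 markers rose with *MYB66*. The summed signal lay within the range of Ws-2, but abundant members dominate it, so it cannot show a rise of the weaker ones. The part of root tissue in the *MYB66* signal was not tested.

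*MYB61* fell in both genotypes that carry *bri1-5*. It acts in xylem and secondary wall formation, seed coat mucilage and stomatal aperture. Its mean signal was 5.92 ± 0.07 (SD, n = 3) in Ws-2, 5.61 ± 0.25 in *phyB-77* seedlings, 4.94 ± 0.32 in *bri1-5* and 5.06 ± 0.15 in the double mutant. The arrays of both genotypes with *bri1-5* (4.69 to 5.30) were below every array of the other genotypes (5.34 to 6.00). The fall in *bri1-5*, the contrast that listed the gene, was 1.97-fold (-0.98 ± 0.14). In the double mutant, not used for the listing but set against the same Ws-2 arrays, *MYB61* fell by 0.86 (SE 0.14, adjusted p = 0.00019 in limma). The double mutant differed from *bri1-5* by 0.12 with an interval of -0.18 to 0.42 (adjusted p = 0.6 in limma).

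The change of *MYB61* in *phyB-77* was -0.31 (interval -0.61 to -0.01, adjusted p = 0.14 in limma), and the interaction was 0.42 (interval 0.00 to 0.85, adjusted p = 0.15 in limma). The double mutant was called below *phyB-77* (-0.55 ± 0.14, adjusted p = 0.0076 in limma). That call was lost when each array was centred on its median or quantile normalised (-0.49, adjusted p = 0.021 in both) and when 1 array was left out, for each Ws-2 array (-0.55, adjusted p = 0.0103 to 0.011), *phyB-77* replicates 2 and 3 (-0.52 and -0.45) and each double mutant array (-0.62 to -0.47).

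Of 16 listed genes of lignin and secondary wall formation, 6 were measured, 5 of them named through the study's tables. All 6 were called lower in *bri1-5* (median -0.80), 2 were called lower in the double mutant (median -0.31), and none was called in *phyB-77* (median 0.15). Over all probe sets 8.61% were called lower in *bri1-5* and 8.01% in the double mutant. For the 5 genes that the study's tables named, these counts are no independent evidence. The cellulose synthase genes *CESA4* and *CESA7*, which build secondary walls, fell by 0.84 and 0.80 in *bri1-5*, and their changes in the double mutant were -0.11 and -0.16 (adjusted p = 0.42 and 0.31 in limma). The lignin laccase gene *LAC4* fell by 1.11 and the cinnamyl alcohol dehydrogenase gene *CAD5* by 0.80 in *bri1-5*. Between the double mutant and *bri1-5*, 4 of the 6 were called higher (median 0.54), against 7.77% of all probe sets. *MYB61* was not called in that contrast. Of the xylem list, the measured members were *CESA4* and *CESA7*, 2 of 6, and their summed signal was 372 to 394 in Ws-2, 369 to 426 in *phyB-77* seedlings, 209 to 222 in *bri1-5* and 349 to 350 in the double mutant. The part of xylem cell number in the *MYB61* signal was not tested.

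*MYB44*, *MYB73* and *MYB77* belong to 1 subgroup of the family, and all 3 were highest in the double mutant. All 3 were listed through the double mutant against Ws-2, so a high signal on its arrays was part of their selection. *MYB44* is known for its role in abscisic acid responses and stomatal closure, *MYB73* for a negative role under salt stress, and *MYB77* for auxin responses in lateral root growth, where it binds auxin response factors. The signals of *MYB77* were 6.58, 6.59 and 6.46 in Ws-2, 6.75, 6.46 and 6.57 in *phyB-77* seedlings, 7.10, 7.18 and 7.32 in *bri1-5*, and 8.33, 7.92 and 7.95 in the double mutant. Ws-2 and *phyB-77* overlapped, every *bri1-5* array was above them, and every double mutant array was above those of *bri1-5*. *MYB77* rose by 0.65 ± 0.11 in *bri1-5*, a contrast that did not list it but reuses the Ws-2 arrays (adjusted p = 0.00024 in limma). In *phyB-77* its change from Ws-2 was 0.05, with an interval of -0.19 to 0.29 and a sign that turned when arrays were centred on their medians (-0.01).

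In the double mutant, the contrast that listed it, *MYB77* was 2.87-fold higher than in Ws-2 (1.52 ± 0.11). It was 0.87 ± 0.11 higher than in *bri1-5* (adjusted p = 1.2e-05 in limma) and 1.47 ± 0.11 higher than in *phyB-77* (adjusted p = 2.4e-08 in limma). The interaction was called at 0.82 ± 0.16 (interval 0.48 to 1.16, adjusted p = 0.0011 in limma), the highest among the members. On these arrays the change with *phyB-77* was larger in *bri1-5* than in Ws-2. The contrast that listed the gene is part of the interaction and favours this sign.

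*MYB44* had mean signals of 8.95 ± 0.18 (SD, n = 3) in Ws-2, 9.21 ± 0.05 in *phyB-77* seedlings, 9.16 ± 0.21 in *bri1-5* and 9.73 ± 0.01 in the double mutant. The double mutant arrays were above all others, while the arrays of *bri1-5* overlapped those of Ws-2 and *phyB-77*. The double mutant exceeded Ws-2 by 0.78, the contrast that listed the gene. It exceeded *bri1-5* by 0.57 (adjusted p = 0.00059 in limma) and *phyB-77* by 0.52 (adjusted p = 0.0017 in limma). Neither single mutant was called, with changes of 0.26 in *phyB-77* (interval 0.03 to 0.49) and 0.21 in *bri1-5* (interval -0.03 to 0.44), and the interaction was 0.31 (interval -0.01 to 0.64, adjusted p = 0.17 in limma).

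*MYB73* had mean signals of 7.82 ± 0.12 (SD, n = 3) in Ws-2, 8.22 ± 0.05 in *phyB-77* seedlings, 8.32 ± 0.21 in *bri1-5* and 8.78 ± 0.05 in the double mutant. Its changes from Ws-2, all in contrasts that placed it in the tables, were 0.40 in *phyB-77*, 0.51 in *bri1-5* and 0.96 in the double mutant. The double mutant exceeded *phyB-77* by 0.56 ± 0.10 (adjusted p = 0.00055 in limma) and *bri1-5* by 0.45 ± 0.10 (adjusted p = 0.0027 in limma). The interaction was 0.05, with an interval of -0.26 to 0.36, so the changes of the single mutants added up within this interval. The rise in *phyB-77* lost its call under median centring (0.35, adjusted p = 0.018 in limma), under quantile normalisation (0.36, adjusted p = 0.017) and without any 1 of the Ws-2, *phyB-77* or double mutant arrays (0.33 to 0.44, adjusted p = 0.011 to 0.05). The difference from *bri1-5* lost its call without *bri1-5* replicate 2 (0.33, adjusted p = 0.016), without double mutant replicate 2 (0.44, 0.013) without double mutant replicate 3 (0.43, 0.015) or with only the arrays of both genotypes in the fit (0.45, 0.011).

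*MYB91*, better known as *AS1*, represses meristem homeobox genes in young leaves. Its mean signal was 9.55 ± 0.10 (SD, n = 3) in Ws-2, 10.04 ± 0.07 in *phyB-77* seedlings, 9.63 ± 0.14 in *bri1-5* and 9.60 ± 0.08 in the double mutant. The *phyB-77* arrays (9.97 to 10.09) were above all other arrays (9.49 to 9.77). Against Ws-2 the rise of 0.49 ± 0.10 in *phyB-77* was called, in a contrast counted as listing the gene. The changes of 0.08 in *bri1-5* and 0.05 in the double mutant were not called. The double mutant was 0.44 lower than *phyB-77* (-0.44 ± 0.10, adjusted p = 0.0021 in limma) and differed from *bri1-5* by -0.02 (interval -0.22 to 0.18). The contrast with *phyB-77* reuses the *phyB-77* arrays of a contrast counted as listing the gene. The call against *phyB-77* was lost without double mutant replicate 2 (-0.40, adjusted p = 0.015) or replicate 3 (-0.43, adjusted p = 0.011). The interaction of -0.52 ± 0.13, which reuses the same *phyB-77* arrays, was called (adjusted p = 0.0092 in limma), close to the threshold. It lost its call under median centring (-0.41, adjusted p = 0.031), under quantile normalisation (-0.51, adjusted p = 0.012), with array weights (-0.44, adjusted p = 0.017) and when 1 array was left out, for each *phyB-77* and double mutant array, Ws-2 replicates 1 and 3 and *bri1-5* replicates 2 and 3 (-0.56 to -0.44, adjusted p = 0.011 to 0.031).

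*MYB65* is a relative of the gibberellin-regulated GAMYB genes of cereals and a target of microRNA miR159. Its mean signal was 5.71 ± 0.10 (SD, n = 3) in Ws-2, 6.10 ± 0.06 in *phyB-77* seedlings, 5.82 ± 0.16 in *bri1-5* and 5.88 ± 0.07 in the double mutant. Against Ws-2 the rise of 0.39 ± 0.10 in *phyB-77* passed the threshold, in a contrast counted as listing the gene. This call was lost under median centring and quantile normalisation (0.34 in both, adjusted p = 0.015 and 0.014), with a variance trend and robust estimation (0.39, adjusted p = 0.012) and without any 1 of the Ws-2 or *phyB-77* arrays (0.33 to 0.42, adjusted p = 0.01 to 0.039). The changes were 0.11 in *bri1-5* and 0.17 in the double mutant, and neither was called. The difference between the double mutant and *phyB-77* was -0.23, with an interval of -0.43 to -0.02 (adjusted p = 0.1 in limma).

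**Figure D3:**
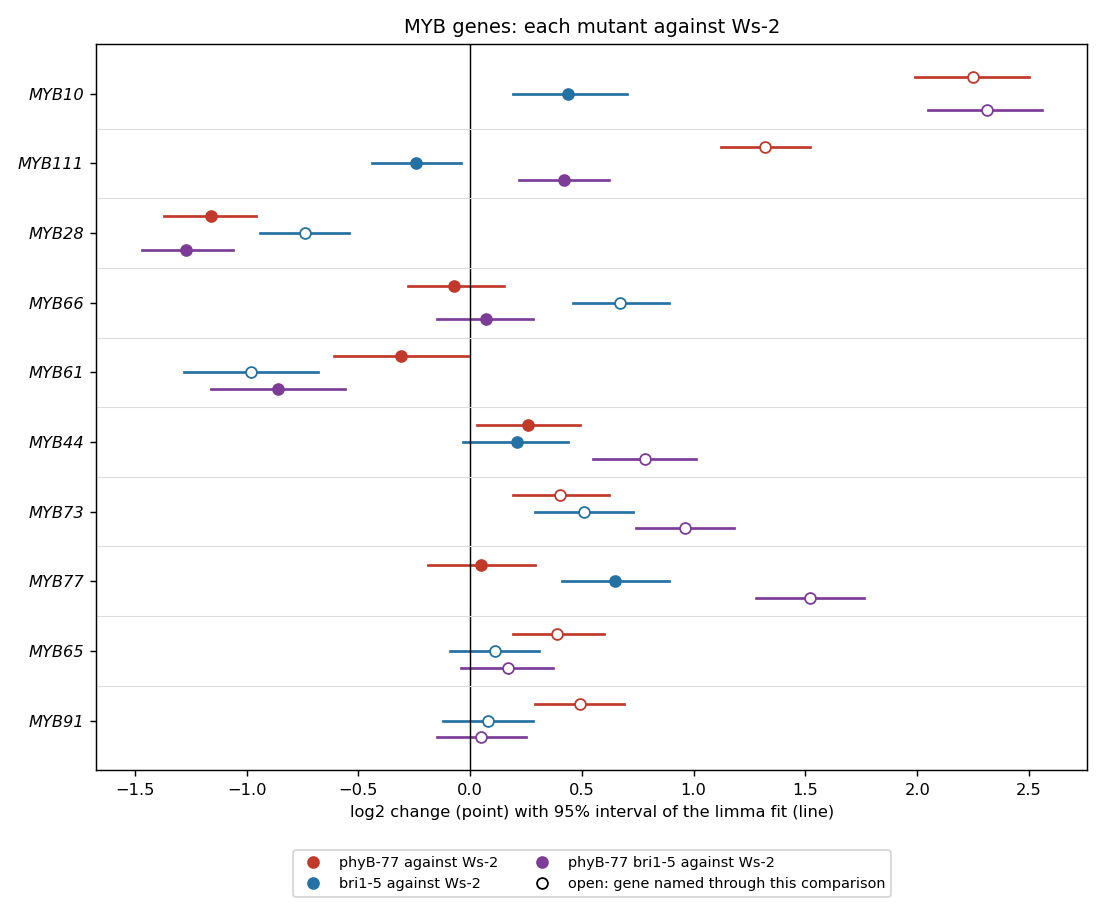
Log2 change against Ws-2 (x axis) with the 95% interval of the limma fit for the 10 MYB genes in *phyB-77*, *bri1-5* and the double mutant (colours). Open points mark the contrast through which a gene was listed. The values ran from -1.27 for *MYB28* to 2.31 for *MYB10*, both in the double mutant.

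The contrasts between the double mutant and the single mutants listed no member, but they reuse arrays of the contrasts that did. Between the double mutant and *bri1-5*, 5 members were called higher (*MYB10*, *MYB44*, *MYB73*, *MYB77* and *MYB111*) and 2 lower (*MYB28* and *MYB66*), where 19.4% of all probe sets were called, 7.77% higher and 11.6% lower. Between the double mutant and *phyB-77*, 3 were called higher (*MYB44*, *MYB73* and *MYB77*) and 3 lower (*MYB61*, *MYB91* and *MYB111*), where 16.0% were called, 6.44% higher and 9.51% lower. Arrays did not overlap for 7 members against *bri1-5* and 8 against *phyB-77*, where 41.7% and 42.3% of all probe sets did not. The 3 genes called higher than in both single mutants were those of the *MYB44* subgroup. All 3 had been listed through the double mutant against Ws-2, which favours this pattern, so nothing is read from it. The interaction was called above 0 for *MYB28* and *MYB77* and below 0 for *MYB91* and *MYB111*, where 4.82% of all probe sets were called above 0 and 8.93% below. The members had been listed for changes on the same arrays, so their shares are not comparable with these backgrounds as a test.

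**Figure D4:**
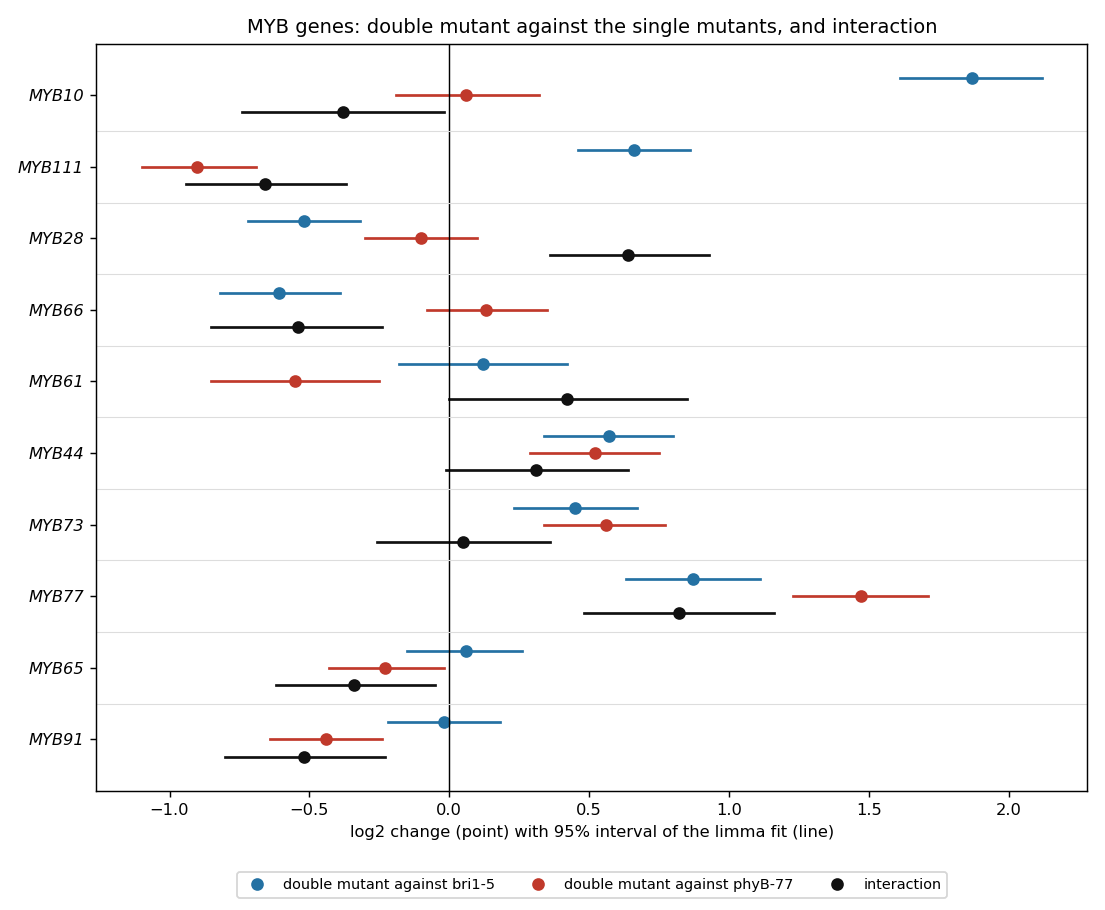
Log2 change (x axis) with the 95% interval of the limma fit for the 10 MYB genes in the double mutant against *bri1-5*, in the double mutant against *phyB-77*, and for the interaction (colours). *MYB10* was 1.87 higher against *bri1-5* and 0.06 higher against *phyB-77*, and the intervals of *MYB44*, *MYB73* and *MYB77* lay above 0 in both contrasts.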

How the data were processed

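RNA of whole seedlings was hybridised to 12 Affymetrix ATH1 arrays. The authors deposited 1 log2 signal per probe set and array from RMA, which corrects background, equalises the distributions of the arrays and summarises probes, so differences are between values already scaled to each other, and a shift shared by most genes cannot be seen. No detection call was used. RMA software and version are not given in the sources used here.

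Of 22810 probe sets, 64 controls were left out. The platform annotation gave 1 gene for 13513 probe sets and the readable parts of the study's tables for 1295 more. Several genes were given for 503, and no gene for 7435. None of the 10 members was named by the annotation, so the planned count over annotation-named members was empty and all members were counted. RefSeq (TAIR10.1) gave symbols. From the study's tables only gene names and the contrast that listed them were taken. Their columns of fold changes and p-values were not used.

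The values were fitted in limma 3.58.1 (R 4.3.3) with 1 coefficient per genotype over all 12 arrays, comparing each mutant with Ws-2 and the double mutant with *bri1-5* and with *phyB-77*, and testing the interaction, the change from *bri1-5* to the double mutant minus that from Ws-2 to *phyB-77*. The moderated test was two-sided, with Benjamini-Hochberg adjustment over 22746 probe sets and a threshold of 0.01, without a fold criterion. The number of arrays limits the precision: 8 residual degrees of freedom and 9.85 prior ones, with standard errors of log2 changes of 0.10 in the median and at most 0.27 outside the interaction. The fit was tested on simulated data. Members, lists and contrasts were chosen with earlier results of these data known. Every array is given for members that changed at least 2-fold and were called against Ws-2, others by means, and at most 4 genes of a list, those with the smallest adjusted p against Ws-2, were named. *MAM3*, named as well because it was the exception in its list, and *SESA1* were chosen after their values were seen. Alternatives were other scalings, thresholds, filters and variance models, a replicate block, and leaving out each array. Tables and figures used Python 3.11.15, pandas 2.3.3 and matplotlib 3.10.9.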

Additional observations from a re-analysis of the deposited data

Results flagged for a closer look

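For 4 of the 10 MYB genes the effect of *phyB-77* in *bri1-5* differed from its effect in Ws-2 by a test of the difference itself, the interaction term in limma, while 13.8% of all probe sets passed the same test. The members had been listed for changes on these same arrays, so their share is not comparable with this background as a test. The interaction contains the contrasts that listed each gene, and for *MYB77*, *MYB28* and *MYB111* the listing favours the sign found. The p-values below are therefore no independent evidence of a direction. *MYB77* had an interaction of 0.82 on the log2 scale (adjusted p = 0.0011), with no called change from Ws-2 to *phyB-77* (0.05) and a rise of 0.87 from *bri1-5* to the double mutant. *MYB28* had an interaction of 0.64 (adjusted p = 0.002), with a fall of 1.16 from Ws-2 to *phyB-77* and a fall of 0.52 from *bri1-5* to the double mutant. *MYB111* had an interaction of -0.66 (adjusted p = 0.0017), with rises of 1.32 and 0.66 in the same order. *MYB91* had an interaction of -0.52 (adjusted p = 0.0092), with changes of 0.49 and -0.02, and this call was lost under median centring (-0.41, adjusted p = 0.031), quantile normalisation (-0.51, 0.012) and array weights (-0.44, 0.017), and without most single arrays (-0.56 to -0.44).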

How the results depend on the processing

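Of the changes fitted for the 10 members, 35 were called and 25 were not, and 28 kept their call under every alternative fitted for single genes. The number of MYB genes called stayed within 1.5 times the main count except with an added 1.5-fold criterion, where it was 3 in *phyB-77* relative to Ws-2, and 4 and 2 in the double mutant relative to *bri1-5* and to *phyB-77*. Leaving out 1 array gave counts of 4 to 6 for *phyB-77*, 5 to 6 for *bri1-5* and 6 to 7 for the double mutant against Ws-2, 6 to 7 and 4 to 6 for the double mutant against *bri1-5* and *phyB-77*, and 3 to 4 for the interaction. The replicate numbers did not pair the arrays: deviations of 18 same-numbered pairs correlated between -0.195 and 0.076, and 1 of 12 arrays correlated best with its own number. With the replicate block the counts were 5, 6, 7, 7, 5 and 3 in the same order: it ended the calls of *MYB73* in *phyB-77* (0.40, adjusted p = 0.011), *MYB61* in the double mutant against *phyB-77* (-0.55, 0.011) and the *MYB91* interaction (-0.52, 0.015), and gave *MYB10* in *bri1-5* a call (0.44, 0.0092). Signs turned for values that were never called. With 1 array left out, *MYB66* in *phyB-77* ranged from -0.15 to 0.00 and *MYB77* from -0.03 to 0.11, and *MYB77* came to -0.01 under median centring and under quantile normalisation. The double mutant against *bri1-5* ranged from -0.01 to 0.30 for *MYB61*, -0.02 to 0.14 for *MYB65* and -0.10 to 0.05 for *MYB91*, each turning without *bri1-5* replicate 3 and *MYB91* also without double mutant replicate 2 (0.01), under median centring (0.02) and with array weights (0.01). Against *phyB-77*, *MYB10* ranged from -0.03 (without *phyB-77* replicate 3) to 0.12, and the *MYB73* interaction from -0.07 (without *bri1-5* replicate 2) to 0.12. The cause was not tested. Median centring moved the share of calls above 0 over all probe sets from 55.8% to 44.4% in *phyB-77*, from 40.4% to 53.9% for the double mutant against *phyB-77* and from 35.1% to 53.0% for the interaction, and the median interaction of all probe sets from -0.05 to 0.05. With the 40% dimmest probe sets left out, *MYB66* was not tested.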

Other observations

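Other pathways that MYB proteins are known to control were measured through few genes. Of 8 genes listed for indolic glucosinolate synthesis, the tryptophan-derived branch, 3 were measured, all named through the study's tables. The gene *APK1* among them serves glucosinolate sulphation in general and not this branch alone. All 3 measured genes were called lower in *bri1-5* and in the double mutant, and in *phyB-77* 1 was called higher and 1 lower. Over all probe sets 8.56% were called higher and 6.77% lower in *phyB-77*. The shares called lower were 8.61% in *bri1-5* and 8.01% in the double mutant. *IGMT1*, a methyltransferase of indole glucosinolates, had called changes of -2.23 in *bri1-5* and -0.98 in the double mutant, against -0.04 in *phyB-77* (adjusted p = 0.87 in limma). *CYP79B2*, which makes the oxime precursor, rose by 0.41 in *phyB-77* and fell by 0.51 in *bri1-5*. Of 8 listed wax genes 5 were measured, 1 of them named by the platform annotation and the others through the study's tables. In *phyB-77* 3 were called higher and 1 lower, in *bri1-5* 3 were called lower, and in the double mutant 1 was called higher and 3 lower. The shares of all probe sets are those just given, with 6.55% called higher in the double mutant. *CER1*, needed for alkane formation, rose by 2.17 in *phyB-77* and 0.56 in the double mutant, and *MAH1*, the midchain alkane hydroxylase gene, fell in all 3 mutants, with changes of -1.99, -3.35 and -2.91 in *phyB-77*, *bri1-5* and the double mutant.

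Of 13 listed partners and small inhibitors of MYB proteins, 4 were measured, 3 of them named by the platform annotation. *MYBL2* was named through the study's tables, so its directions are no independent evidence. In *phyB-77* 2 were called lower, and in *bri1-5* and in the double mutant 1 was called higher and 1 lower. Over all probe sets 6.77%, 8.61% and 8.01% were called lower in *phyB-77*, *bri1-5* and the double mutant. The shares called higher were 10.5% in *bri1-5* and 6.55% in the double mutant. *MYC4*, whose protein works with *MYB28* in glucosinolate control, fell in all 3 mutants, by 1.14 in the double mutant against 0.73 in *phyB-77* and 0.46 in *bri1-5*. *MYBL2*, a single-repeat repressor of flavonoid genes, fell by 0.46 in *phyB-77* and rose by 0.95 in *bri1-5* and 0.48 in the double mutant. *MYC3* and *TRY*, the gene of a single-repeat inhibitor of trichome fate, were called in none of the 3 mutants.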
